A study of Fragaria vesca with 12 samples.

Results

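The AlkB family is named for dioxygenases that use ferrous iron and 2-oxoglutarate to oxidise methyl groups off nucleic acids. The genes described here are 6 of the 21927 in the deposited expression table of diploid strawberry (Fragaria vesca). They were chosen by gene ID from their annotation, which gives a dioxygenase term to only some of them: FvH4_2g24110, which carries the term RNA N6-methyladenosine dioxygenase activity, FvH4_1g11920, described as RNA demethylase ALKBH5, FvH4_3g46100, described as alkB homolog 6, and FvH4_5g24670, FvH4_2g25440 and FvH4_5g38270, described as alkB homolog 8. All 6 had a mean of at least 1 FPKM (fragment numbers per transcript length and per mapped fragments) over the input libraries and were among the 15571 genes tested. In the mutant, RNA of FvH4_2g24110 was 6.95-fold lower than in the wild type. The alkB homolog 6 gene and 2 of the 3 alkB homolog 8 genes rose by 1.73-fold to 1.98-fold, where 48.3% of all tested genes were called higher. After quantile normalization, the rises of the alkB homolog 8 genes no longer passed the test. Each of the 6 genes had an m6A peak listed in its 3′ UTR in both genotypes, as did 64.5% of tested genes in the wild type and 65.4% in the mutant.

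The series holds 12 libraries in 4 groups of 3 biological replicates, all from fruit collected 27 days post anthesis (DPA). Wild-type (WT) fruit and fruit of the Fvalkbh10b mutant were each sequenced as fragmented mRNA before precipitation (input, no antibody) and after immunoprecipitation with an anti-m6A antibody (IP). The labels do not give the kind of mutation, the locus that carries it, the number of mutant lines or whether fruits were pooled, and the sources used here do not say whether FvH4_2g24110 is the mutated gene. Levels are per gene and library for the 6 input libraries, whereas peaks are given as 1 list per genotype.

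N6-methyladenosine (m6A) is a methyl mark on mRNA that a methyltransferase complex writes, YTH-domain proteins read and certain AlkB dioxygenases erase. Human ALKBH5 and Arabidopsis ALKBH10B remove m6A from mRNA, and in Arabidopsis loss of ALKBH10B delays flowering; in tomato an AlkB-type m6A demethylase promotes fruit ripening. Mammalian ALKBH8 joins a methyltransferase and a dioxygenase that act on the wobble uridine of tRNA, and in Arabidopsis these activities sit on separate proteins, TRM9 and ALKBH8.

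The gene annotated as an m6A eraser, FvH4_2g24110, lies on chromosome 2 from 19702086 to 19706888 on the plus strand (coordinates as in the authors' table, whose genome build is not given) and has 3 transcripts. The table describes it as uncharacterized protein LOC101299256. It is the only 1 of the 21927 genes with the terms RNA N6-methyladenosine dioxygenase activity and demethylase activity, and it also carries the term vegetative to reproductive phase transition of meristem. Before precipitation, WT libraries 1 to 3 held 30.27, 28.53 and 31.03 FPKM of this transcript, against 3.75, 3.84 and 5.34 FPKM in mutant libraries 1 to 3. All WT libraries were high and all mutant libraries low, with no overlap. The means were 29.9 ± 1.28 FPKM (SD, n = 3) in WT and 4.31 ± 0.893 FPKM (SD, n = 3) in mutant fruit. On the log2(FPKM + 1) scale the mutant minus WT difference was -2.55 (SE 0.11, 95% interval -2.81 to -2.30; limma adjusted p = 3.01e-08). The exact two-sided permutation test gave p = 0.1, the smallest that 3 libraries against 3 allow. In fruit tissue sequenced in bulk, fewer cells that hold a transcript and less of it per cell cannot be told apart.

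The fall of FvH4_2g24110 was large beside those of other genes. Of the 15571 genes tested, 67.5% passed limma's test at an adjusted p under 0.05, with 19.1% lower in the mutant and 48.3% higher, and 6.49% were called lower with a change of at least 2-fold. The median difference of the 2978 genes called lower was -0.67 on the log2(FPKM + 1) scale, and 8.66% of them had a lower value than FvH4_2g24110. Its level stood at the 83.5th percentile of the tested genes in WT and at the 26.9th in the mutant. The median over all tested genes was itself shifted, by 0.25, and relative to that median the difference of FvH4_2g24110 was -2.80. In the authors' deposited table, the log2 fold change is -2.80, for a fold change of 0.14. That value is not relative to the median, so the values of -2.80 are on different scales. The gene is the only 1 of the 6 marked significant there. The q-values listed there for FvH4_3g46100 (0.0), FvH4_5g24670 (0.01) and FvH4_2g25440 (0.01) are also small, though these genes are not marked.

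The genes listed next to FvH4_2g24110 on the chromosome did not show a fall of that size. The nearest gene upstream in the table, FvH4_2g24090, ends at 19663287, whereas FvH4_2g24110 starts at 19702086. FvH4_2g24090 averaged 8.33 ± 1.88 FPKM in WT against 5.97 ± 1.20 FPKM in mutant fruit (SD, n = 3 each, log2 difference -0.41, SE 0.17, limma adjusted p = 0.0558). The nearest downstream, FvH4_2g24111, described as BSD domain-containing protein 1 and on the opposite strand, had 50.6 ± 3.23 and 56.3 ± 1.49 FPKM (SD, n = 3 each; log2 difference 0.15, SE 0.06, limma adjusted p = 0.0330). Both differences lay below the median of all genes, 0.25.

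**Figure D1:**
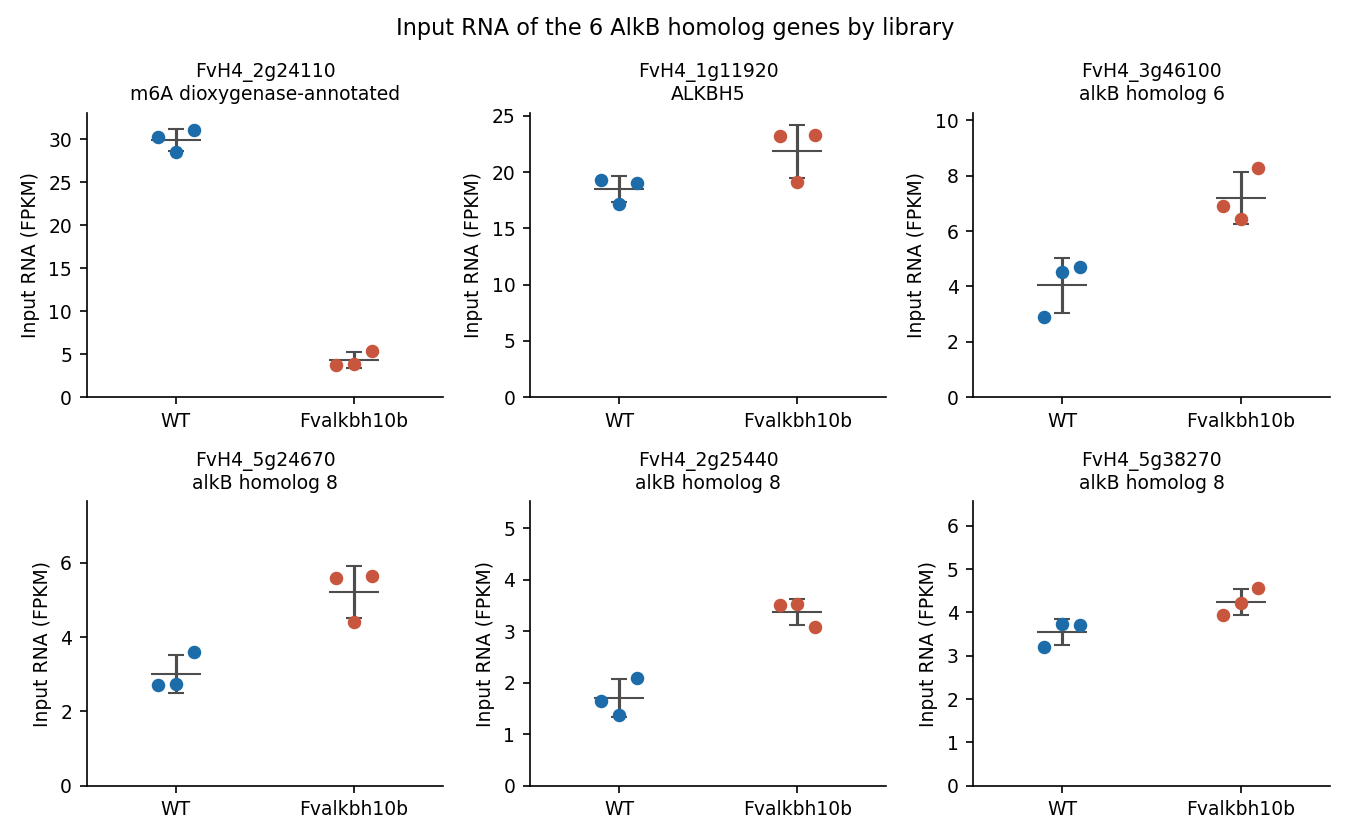
Input RNA (FPKM, linear axes from 0) of each of the 6 AlkB homolog genes; points are libraries, horizontal lines means and bars SD (n = 3 per genotype). FvH4_2g24110 lies at 28.53 to 31.03 FPKM in WT libraries and 3.75 to 5.34 FPKM in mutant libraries, the ALKBH5 gene overlaps between genotypes, and the other 4 genes are higher in each mutant library than in any WT library.

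ALKBH5, whose human counterpart demethylates m6A in nuclear mRNA, is the gene FvH4_1g11920 on chromosome 1 from 6516219 to 6519562 on the minus strand. Its levels were 19.27, 17.18 and 19.07 FPKM in WT and 23.22, 19.16 and 23.26 FPKM in the mutant. The mutant library numbered 2 lay within the WT range, so the groups overlapped. The means were 18.5 ± 1.15 and 21.9 ± 2.36 FPKM (SD, n = 3 each), a log2 difference of 0.23 (SE 0.09, 95% interval 0.03 to 0.42, limma adjusted p = 0.0418; exact permutation p = 0.2). This call is at the edge of the threshold: leaving out any library but mutant library 2 lost it (limma adjusted p from 0.0504 to 0.139), and relative to the median of all genes the difference was -0.02. In the authors' deposited table the gene has a p-value of 0.68.

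The alkB homolog 6 gene, FvH4_3g46100, lies on chromosome 3 from 38252434 to 38257906 on the plus strand and shares the terms ferrous iron binding and dioxygenase activity with FvH4_5g24670. It had 2.90, 4.52 and 4.70 FPKM in WT and 6.90, 6.45 and 8.27 FPKM in the mutant. Every mutant library was above every WT library, and WT library 1 was the lowest of all. The gene rose 1.78-fold, from 4.04 ± 0.991 to 7.21 ± 0.948 FPKM (SD, n = 3 each), with a log2(FPKM + 1) difference of 0.72 (SE 0.16, 95% interval 0.36 to 1.07, limma adjusted p = 0.00277). It remained 0.47 above the median of all genes.

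The alkB homolog 8 genes differ in annotation, and how fragments shared between such related genes were assigned is not stated. FvH4_5g24670 (chromosome 5, 16032057 to 16037768, plus strand) carries the terms dioxygenase activity and tRNA wobble uridine modification. FvH4_5g38270 (chromosome 5, 28296384 to 28300775, plus strand, 11 transcripts) carries tRNA wobble uridine modification, tRNA methylation and tRNA methyltransferase activity, and no dioxygenase term. FvH4_2g25440 (chromosome 2, 20639414 to 20641511, minus strand) carries the term protein hydroxylation, which no other gene of the table has.

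FvH4_5g24670 had 2.70, 2.73 and 3.59 FPKM in WT and 5.58, 4.40 and 5.65 FPKM in the mutant, with every mutant library above every WT library. It rose 1.73-fold, from 3.01 ± 0.505 to 5.21 ± 0.702 FPKM (SD, n = 3 each; log2 difference 0.63, SE 0.14, 95% interval 0.33 to 0.94, limma adjusted p = 0.00236). FvH4_2g25440, the lowest of the family, had 1.65, 1.37 and 2.09 FPKM in WT and 3.51, 3.52 and 3.09 FPKM in the mutant. Its mutant libraries again all lay above its WT libraries. It rose 1.98-fold, from 1.70 ± 0.363 to 3.37 ± 0.245 FPKM (SD, n = 3 each; log2 difference 0.70, SE 0.14, 95% interval 0.39 to 1.01, limma adjusted p = 0.00135). After quantile normalization, which gives all libraries 1 distribution, neither of these rises passed (limma adjusted p = 0.0789 for FvH4_5g24670 and 0.0683 for FvH4_2g25440).

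FvH4_5g38270, the alkB homolog 8 gene with methyltransferase terms, had 3.20, 3.73 and 3.70 FPKM in WT and 3.95, 4.21 and 4.56 FPKM in the mutant. The mutant libraries were all higher, by a small margin. The means were 3.54 ± 0.298 and 4.24 ± 0.306 FPKM (SD, n = 3 each), and the difference of 0.21 did not pass the test (SE 0.11, 95% interval -0.05 to 0.46, limma adjusted p = 0.130). Its sign turned to -0.02 with the libraries scaled to 1 median and to -0.14 after quantile normalization.

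Of the 6 genes, 5 were called, where 67.5% of all tested genes were. Of these, 4 were higher, beside 48.3% of all tested genes, and 1 lower, beside 19.1%. The median difference of the 6 was 0.43, beside 0.25 over all tested genes, and none rose as much as 2-fold. Without overlap between the genotypes, 4 genes were higher and 1 lower, where 50.9% and 20.5% of all tested genes were. With the libraries scaled to 1 median, 3 of the 6 were called higher, beside 30.8% of all tested genes, and 1 lower, beside 32.2%. Scaled to 1 upper quartile, 3 were higher, beside 37.1%, and 1 lower, beside 26.2%. After quantile normalization 1 was higher, FvH4_3g46100, beside 31.3%, and 1 lower, beside 29.7%. The gene called lower was FvH4_2g24110 each time.

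**Figure D2:**
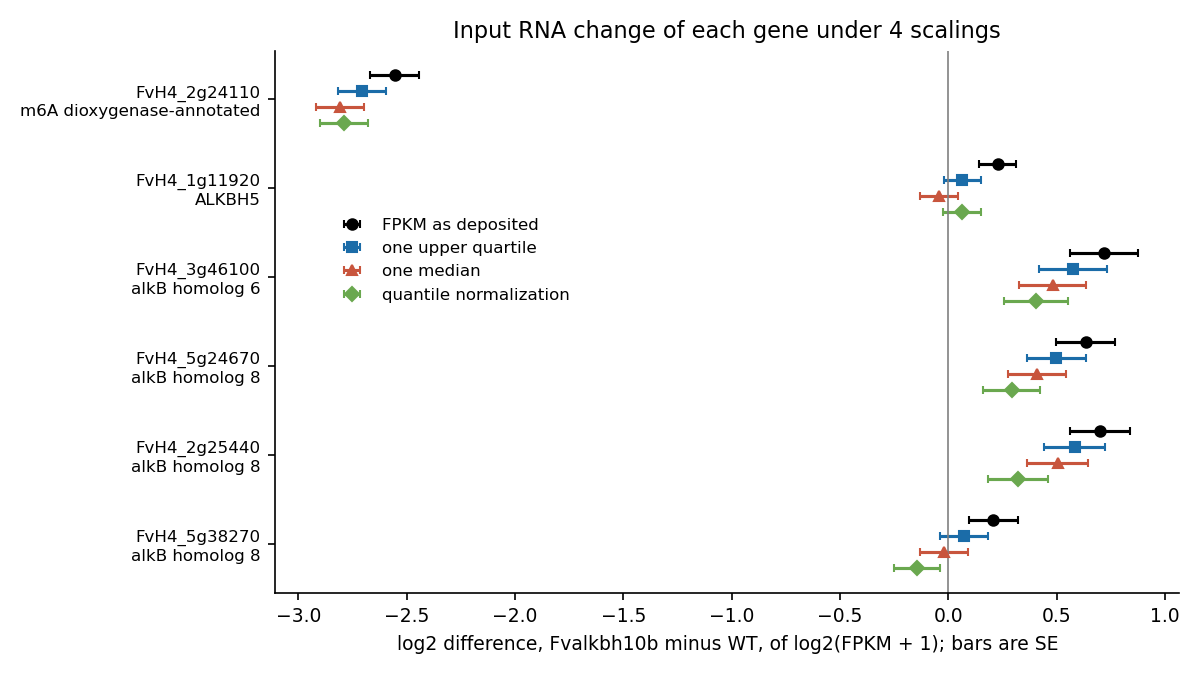
Mutant minus WT difference of log2(FPKM + 1) for each gene (points, bars SE from limma) under 4 scalings of the libraries. FvH4_2g24110 stays below -2.5 under all 4, FvH4_3g46100, FvH4_5g24670 and FvH4_2g25440 stay above 0, and the ALKBH5 gene and FvH4_5g38270 lie near 0 and change sign.

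The order of the family's levels differed between the genotypes. In WT, FvH4_2g24110 was the highest in FPKM, followed by the ALKBH5 gene, and both lay clear of the rest. FvH4_3g46100, FvH4_5g38270 and FvH4_5g24670 followed with overlapping ranges, and FvH4_2g25440 was lowest. In the mutant the ALKBH5 gene was highest and FvH4_3g46100 came next. FvH4_5g24670, FvH4_2g24110 and FvH4_5g38270 then overlapped from neighbour to neighbour, and FvH4_2g25440 was again lowest.

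A share of the family's own FPKM does not change when a library is scaled by 1 factor. FvH4_2g24110 made up 50.5%, 49.1% and 48.4% of the summed FPKM of the 6 genes in the WT libraries and 7.99%, 9.24% and 10.6% in the mutant libraries. The ALKBH5 gene made up 30.5 ± 1.43% of it in WT fruit, against 47.3 ± 1.90% in mutant fruit (SD, n = 3 each), so that it took the largest share there. The summed FPKM of the 6 was 59.99, 58.06 and 64.18 in WT and 46.91, 41.58 and 50.17 in the mutant, lower in every mutant library. That of the 5 without FvH4_2g24110 was 29.72, 29.53 and 33.15 in WT and 43.16, 37.74 and 44.83 in the mutant, higher in every mutant library. Both sums gave an exact permutation p = 0.1, the smallest possible, and unlike the shares they do depend on the scaling.

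**Figure D3:**
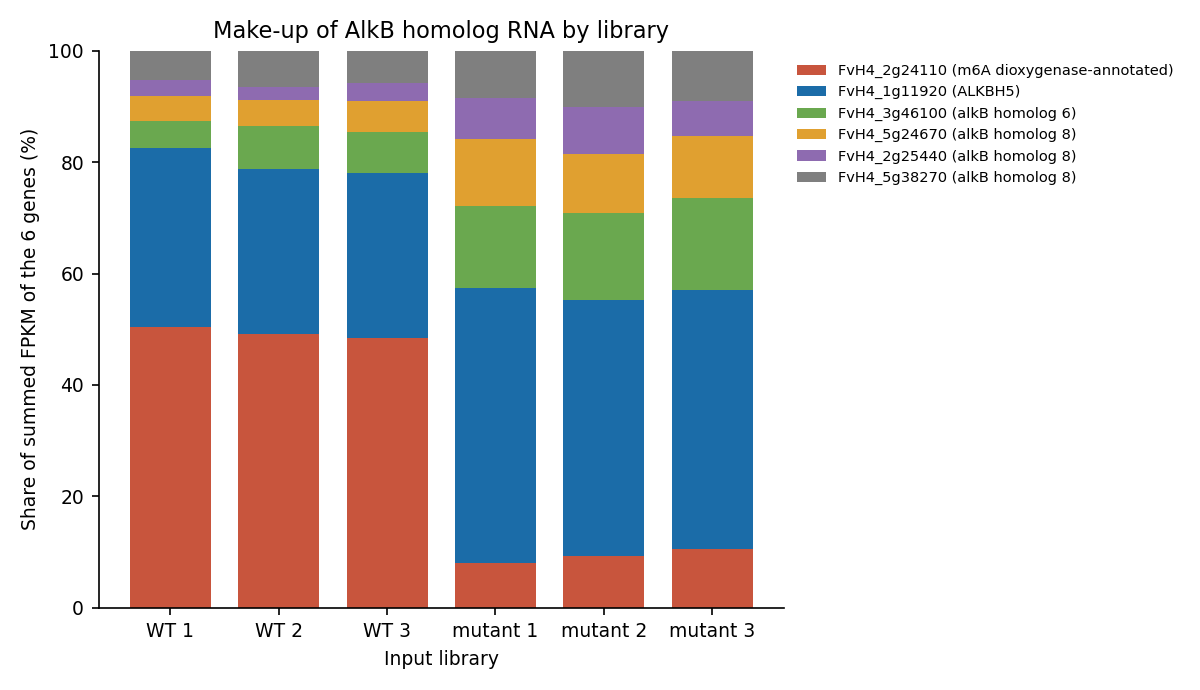
Share (%) of the summed FPKM of the 6 AlkB homolog genes taken by each gene, 1 bar per input library. The share of FvH4_2g24110 is 48.4% to 50.5% in WT libraries and 7.99% to 10.6% in mutant libraries, where the ALKBH5 gene has the largest share.

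Ratios within a library were computed as well. The log2 ratio of FvH4_2g24110 to the mean of the other 5, on log2(FPKM + 1) values, was 2.63, 2.48 and 2.42 in WT and -0.71, -0.57 and -0.35 in the mutant. It was lower by 3.05 in the mutant, with no overlap (exact two-sided permutation p = 0.1, the smallest possible). Among the alkB homolog 8 genes, the log2 ratio of FvH4_5g24670 to FvH4_5g38270 was -0.25 ± 0.20 in WT, against 0.29 ± 0.22 in the mutant (SD, n = 3 each; exact permutation p = 0.1), and that of FvH4_2g25440 to FvH4_5g38270 was -1.08 ± 0.33 and -0.33 ± 0.21 (SD, n = 3 each; exact permutation p = 0.1). The last pair of ratios was chosen after the values were seen.

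In the m6A data, the enrichment of a peak is the authors' log2 ratio of IP over input for that peak, and a list pools the replicates, so no spread can be given. All 6 genes had a peak, as did 82.2% of tested genes in the WT list and 83.2% in the mutant list. All 6 genes had 1 peak in the 3′ UTR in each list, where 64.5% of tested genes had one in the WT list and 65.4% in the mutant list. No gene of the 6 had a 5′ UTR peak, where 22.1% and 21.8% of tested genes did. A coding exon peak was listed for 3 of the 6 in WT, beside 31.7% of tested genes, and for 2 in the mutant, beside 31.1%. Each 3′ UTR peak of the 6 genes overlapped its counterpart in the other list. Of all 3′ UTR peaks, 91.3% in the WT list and 88.3% in the mutant list overlapped a peak of the other list. For the 6 genes, 3′ UTR enrichments ran from 2.82 to 3.26 for WT peaks and from 2.34 to 3.56 for mutant peaks. The medians of all 3′ UTR peaks were 3.01 and 3.06.

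FvH4_2g24110 had the shortest 3′ UTR peaks of the family. In WT the peak ran from 19706358 to 19706582 (225 bases, log2 enrichment 2.83), and in the mutant from 19706458 to 19706582 (125 bases, 2.73), both ending 306 bases before the end of the gene. The median length of 3′ UTR peaks was 525 bases in either list. The mutant list alone also held a coding exon peak in this gene, from 19704780 to 19705298 (519 bases), whose log2 enrichment of 1.08 was at the 18.4th percentile of coding exon peaks of that list. A coding exon peak in the mutant list alone was found in 8.37% of tested genes. The gene has no entry in the authors' table of differential peaks, and its input RNA fell between the genotypes as given above; the part of that fall in the peak lists was not tested.

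The ALKBH5 gene had the same 3′ UTR interval in both lists, 6516219 to 6517068 (850 bases), which reaches the 3′ end of the gene. The log2 enrichment was 3.03 in WT and 2.86 in the mutant. Its coding exon peak was also in both lists, from 6517755 to 6518645 in WT (log2 enrichment 1.05) and from 6517780 to 6518595 in the mutant (1.26). It was the only 1 of the 6 genes with a coding exon peak in both, as were 22.7% of tested genes.

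FvH4_3g46100 had a single peak in each list, at the 3′ end of the gene. It ran from 38257265 to 38257906 in WT (642 bases, log2 enrichment 3.13) and from 38257240 in the mutant (667 bases, 3.28).

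Among the alkB homolog 8 genes, FvH4_5g24670 had the longest 3′ UTR peak in the WT list but not in the mutant list. It ran from 16036534 to 16037733 in WT (1200 bases, log2 enrichment 3.12) and from 16036634 to 16037583 in the mutant (950 bases, 3.06). FvH4_2g25440 had its peak from 20639689 to 20640488 in WT (800 bases, 2.82) and from 20639514 to 20640388 in the mutant (875 bases, 2.34). The latter was at the 19.3rd percentile of 3′ UTR peaks of the mutant list, the lowest of the 6. FvH4_5g38270 had the highest enrichment of the family in both lists, 3.26 in WT from 28299300 to 28299999 (700 bases) and 3.56 in the mutant from 28298934 to 28299999 (1066 bases, the longest of the family in that list). FvH4_5g24670 and FvH4_5g38270, the genes annotated with tRNA wobble uridine modification, each had a coding exon peak in the WT list alone, of 388 bases from 16034287 to 16034674 (log2 enrichment 1.52) and of 150 bases from 28298059 to 28298208 (1.44). Such a peak in the WT list alone was found in 8.99% of tested genes. Of all coding exon peaks of the WT list, 31.0% did not overlap a mutant peak.

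**Figure D4:**
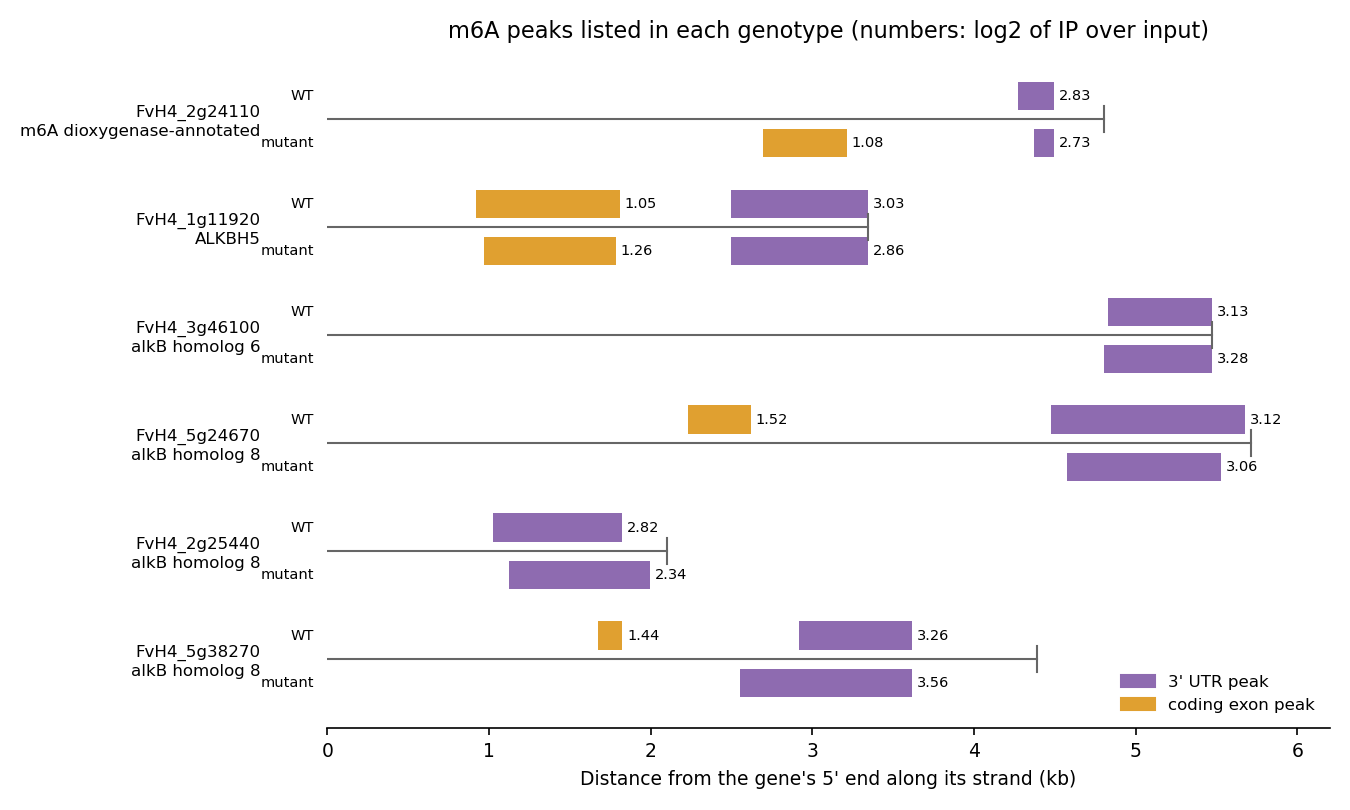
Position of each m6A peak along the 6 genes, as distance from the gene's 5′ end in kb along its strand, with WT peaks above and mutant peaks below each gene line; the number is the authors' log2 ratio of IP over input. All 6 genes have a 3′ UTR peak in both genotypes, 3 have a coding exon peak in WT and 2 in the mutant.

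The authors' deposited table of differential peaks has 3 entries in 3 of these genes, where 43.1% of tested genes have any, and all 3 are lower in the mutant, as are 33.9% of its 8889 entries. The entry in FvH4_5g24670 covers 16034287 to 16034436 in the coding exon peak seen in WT alone, with a log2 change of -0.66 and an adjusted p of 0.02 in the authors' deposited table. It is the only 1 under 0.05, and 10.8% of tested genes had such a lower peak and 22.9% a higher one. The 3′ UTR entry of the ALKBH5 gene is listed in the authors' deposited table at a log2 change of -0.19 with an adjusted p of 0.05, and that of FvH4_2g25440 at -0.48 with 0.09. Input RNA of FvH4_5g24670 and FvH4_2g25440 was higher in the mutant, and the part of this in the peak changes was not tested.

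Other genes of the same RNA modification pathways were collected by words in their descriptions. Of 8 genes found for m6A writing, 5 were called higher and 0 lower (median log2 difference 0.25, as over all genes); 3 of the 8 are tRNA threonylcarbamoyltransferases that the words also caught, and of the other 5 genes 4 were higher (median 0.27). Among all tested genes 48.3% were higher and 19.1% lower. Hakai, a ubiquitin ligase that belongs to the writer complex in Arabidopsis, is FvH4_6g12190 and went from 13.4 ± 0.609 to 16.5 ± 1.08 FPKM (SD, n = 3 each; log2 difference 0.27, limma adjusted p = 0.00874). The catalytic subunit gene, MT-A70-like FvH4_5g11050, had 10.8 ± 0.313 and 11.5 ± 0.378 FPKM (SD, n = 3 each; log2 difference 0.09, limma adjusted p = 0.312). With the libraries scaled to 1 median, 0 of the 8 genes were called higher and 1 lower, beside 30.8% and 32.2% of all tested genes. These counts are over all 8, the 3 tRNA threonylcarbamoyltransferases included.

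Of 4 m6A reader genes, 2 were called higher and 0 lower (median log2 difference 0.19), close to the 48.3% called higher among all tested genes, whose median was 0.25. The YTH-domain gene FvH4_3g45840 went from 59.9 ± 1.54 to 118 ± 4.89 FPKM (SD, n = 3 each; log2 difference 0.97, SE 0.05, limma adjusted p = 4.93e-08). The gene for the cleavage and polyadenylation factor CPSF30, which in Arabidopsis has a form with a YTH domain, is FvH4_3g09980 and went from 10.6 ± 0.619 to 12.8 ± 0.302 FPKM (SD, n = 3 each; log2 difference 0.25, limma adjusted p = 0.0141). With the libraries scaled to 1 median, 1 reader was called higher and 1 lower, beside 30.8% and 32.2% of all tested genes.

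On the tRNA side, ALKBH8 acts after Elongator, which starts the modification of the wobble uridine, and after a methyltransferase that works with TRM112. Of 15 genes found by these words, 7 were called higher and 0 lower (median log2 difference 0.30); 2 of the 15 are dihydrouridine synthases, and of the other 13 genes 6 were higher. The count called higher was close to the 48.3% of all tested genes, and the median of all genes was 0.25. The Elongator subunit genes FvH4_1g19290 (subunit 4) and FvH4_7g21920 (subunit 1) had the smallest adjusted p and rose from 3.96 ± 0.382 to 7.90 ± 0.647 FPKM and from 4.82 ± 0.671 to 9.31 ± 0.486 FPKM (SD, n = 3 each; log2 differences 0.84 and 0.83, limma adjusted p = 7.53e-05 and 9.12e-05). A further Elongator 4 gene, FvH4_7g07230, had 12.2 ± 0.640 and 13.7 ± 1.30 FPKM (SD, n = 3 each, log2 difference 0.15, limma adjusted p = 0.14). The gene for the catalytic subunit with the highest level, Elongator 3 FvH4_5g07340, had 19.5 ± 1.08 and 19.4 ± 1.57 FPKM (SD, n = 3 each, limma adjusted p = 0.971). Of the other Elongator 3 genes, FvH4_5g07450 was called higher (log2 difference 0.42, limma adjusted p = 0.021), and FvH4_5g07410 and FvH4_3g25041 were not called. TRM112 (FvH4_5g37330) had 17.6 ± 1.82 and 22.1 ± 4.47 FPKM (SD, n = 3 each; log2 difference 0.30, limma adjusted p = 0.0786). With the libraries scaled to 1 median, 3 of the 15 were called higher and 2 lower, beside 30.8% and 32.2% of all tested genes.

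**Figure D5:**
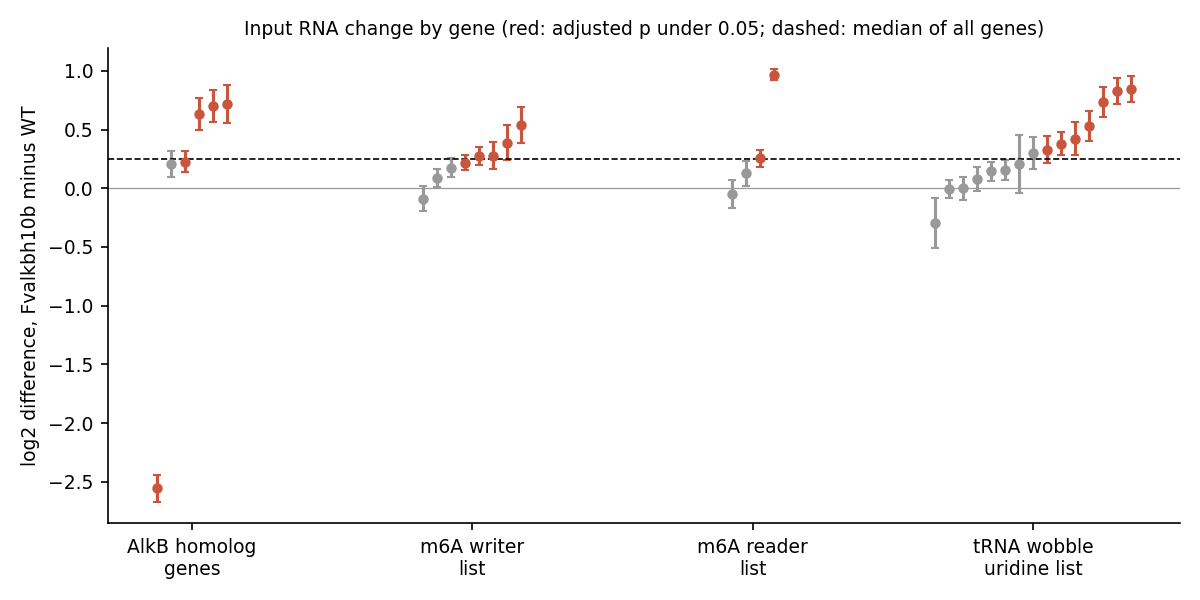
Mutant minus WT difference of log2(FPKM + 1) for each gene (points, bars SE from limma) of the family and of the 3 pathway lists, red where the adjusted p was under 0.05; the dashed line is the median of all tested genes, 0.25. FvH4_2g24110, at -2.55, is the only red point below 0.

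Of 46 further 2-oxoglutarate-dependent dioxygenases in the table, 29 were tested, and 14 were called higher and 5 lower (median log2 difference 0.24). These counts were near the shares over all tested genes, 48.3% higher and 19.1% lower. AOP1-like FvH4_2g29991 fell from 12.9 ± 0.450 to 0.417 ± 0.108 FPKM (SD, n = 3 each; log2 difference -3.29, limma adjusted p = 4.52e-09), and DAO-like FvH4_1g09830, whose Arabidopsis counterpart oxidises auxin, rose from 28.0 ± 0.965 to 64.1 ± 5.53 FPKM (SD, n = 3 each; log2 difference 1.16, limma adjusted p = 1.88e-07). The table names 2 further AlkB genes outside the 6. FvH4_4g23730 (alkB) had 2.85, 3.36 and 2.89 FPKM in WT and 2.59, 3.33 and 3.31 FPKM in the mutant, with overlap (log2 difference 0.01, limma adjusted p = 0.937), and FvH4_3g00300 (alkB homolog 2) was at most 0.99 FPKM and was not tested.

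The tissue markers differed between the genotypes beside these results. Counts called in each marker list stand beside 48.3% of all tested genes called higher and 19.1% lower. The summed FPKM of 38 green tissue genes was 290.4 to 304.2 per WT library but 3038 to 3238 per mutant library, and all 31 tested were called higher. That of 35 achene and seed genes was 707.1 to 721.6 per WT library but 469.7 to 503.5 per mutant library, with 13 of 22 tested called lower and 6 higher. That of 80 ripe fruit flesh genes was 67640 to 68990 per WT library but 107900 to 128200 per mutant library, with 15 of 38 tested called higher and 18 lower. A single metallothionein-like gene, FvH4_3g20030, held 56286 to 57559 FPKM of that sum in WT and 102370 to 121590 FPKM in mutant libraries, and the other flesh genes together were lower in the mutant, at 11352 to 11588 FPKM per WT library and 5538 to 6589 per mutant library. Exopolygalacturonase FvH4_6g41380, an enzyme of pectin breakdown, fell from 2035 ± 30.7 to 0.87 ± 0.225 FPKM (SD, n = 3 each; limma adjusted p = 2.58e-13); putative expansin-B2 FvH4_7g27131 was listed at 0 in all libraries. The part of these tissue differences in the values of the AlkB homologs was not tested. The summed FPKM of all genes was 467174 to 469664 per WT library and 500726 to 522590 per mutant library, and the correlation of log2(FPKM + 1) across genes was 0.988 to 0.990 within a genotype and 0.808 to 0.812 between them.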

How the data were processed

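RNA was extracted from fruit, mRNA was fragmented and part was precipitated with an anti-m6A antibody, per the labels' protocols. FastQC, HISAT2 and StringTie are listed in the submitters' processing notes with no version or role; the sources used here do not name the genome build, annotation or peak caller. The deposited expression table holds FPKM computed by the authors for 6 input libraries, with their own fold and log2 values and a p-value and q-value per gene. The deposited peak tables hold, per the file headers, 1 list per genotype from the replicates together, with positions, the authors' fold and log2 ratio of IP over input, and p-values rounded to 2 decimals; a further table gives the authors' log2 change between genotypes. Deposited peak starts are 0-based and were raised by 1. Read numbers could not be recovered from FPKM, so the depth is unknown. The 15571 of 21927 genes that averaged 1 FPKM or more went into limma 3.58.1 (R 4.3.3). Values were log2(FPKM + 1), the model held genotype alone and a trend of variance with level, and p-values were adjusted by Benjamini and Hochberg's method over all of these genes; a gene was called at an adjusted p under 0.05. Differences on this scale understate changes of low genes. Single values were compared with exact two-sided permutation tests (numpy 2.4.6). Peaks overlapped where they shared at least 1 base on the same strand. Alternatives were other pseudocounts, filters and scalings, limma without the trend, a replicate block, leaving out each library, and stricter peak rules. P-values measure the spread between samples the labels call biological replicates. The labels do not say whether replicate numbers pair the samples, and the numbers were not taken as pairs. The 6 genes and the lists were chosen with earlier results of these data known. Named are the 6 genes, per list the 3 genes with the lowest adjusted p, and for each of the 6 genes the 3 with the most similar profile; the text gives a selection. Neighbouring genes, MT-A70-like FvH4_5g11050, the Elongator 3 genes, Elongator 4 FvH4_7g07230, TRM112 and metallothionein-like FvH4_3g20030 were added after their values were seen.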

Additional observations from a re-analysis of the deposited data

How the results depend on the processing

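FvH4_2g24110 was called lower under every alternative run, at -2.81 to -1.91 on the log2 scale, and FvH4_3g46100 higher under every one. The call of the ALKBH5 gene was lost with no filter (0.23), 1 upper quartile (0.064), quantile normalization (0.063) and limma without the trend (0.23), reversed at 1 median (-0.044, adjusted p = 0.685), and was 0.18 to 0.32 with 1 library left out. FvH4_5g38270 reversed at 1 median (-0.019) and under quantile normalization (-0.14), where FvH4_5g24670 (0.29) and FvH4_2g25440 (0.32) lost their calls. The AlkB homologs called higher were 2 with a filter at 5 FPKM, which leaves 3 of the 6 untested, and 1 under quantile normalization. Among all tested genes, 5058 of 10492 were higher with that filter and 4869 of 15571 under quantile normalization. Counts of writers and wobble genes in this section were drawn from the whole lists of 8 and 15 genes. They include the threonylcarbamoyltransferases and dihydrouridine synthases that the words also caught. At 1 median, 4800 genes were called higher and 5011 lower, with 0 and 1 genes of the m6A writer list, 1 and 1 readers, 3 and 2 tRNA wobble genes, and 7 and 5 dioxygenases. Under quantile normalization these were 4869 and 4625 genes, 0 and 1 writers, 1 and 1 readers, 3 and 1 wobble genes, and 7 and 7 dioxygenases. At 1 upper quartile, 1 writer, 1 reader and 4 wobble genes were higher, beside 37.1% of all tested genes. Writers higher were 3 with no filter, beside 8579 of all 21927 genes, and 3 with a filter at 5 FPKM, beside 5058 of 10492. With 1 library left out, writers higher were 3 to 4, readers higher 1 to 2 (1 without WT library 2) and wobble genes lower 0 to 1 (1 without WT library 1). In those runs, 6995 to 7151 of all 15571 tested genes were called higher and 2789 to 2880 lower. A peak rule of adjusted p under 0.01 and a change of at least 0.5 left 0 differential peaks. The cause was not tested.

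Same-numbered samples did not deviate together (r = 0.0351, -0.0313 and 0.0287), so the replicate numbers were not taken as pairs. With the numbers as a replicate block, 7469 genes were called higher and 2954 lower, 4 AlkB homologs higher and 1 lower, and no call of the 6 changed. The depth is unknown, so no counting error can be given, and 3 libraries a genotype limit every test; peaks have no replicate values.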

Other observations

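The profiles most like each AlkB homolog over the 6 input libraries were sought among 7969 named genes that averaged 5 FPKM or more, by Pearson's r of log2(FPKM + 1). The 6 points fall into 2 genotypes, so r mostly describes a step between them, and it is given as a description. For FvH4_2g24110 the closest were somatic embryogenesis receptor kinase 2 FvH4_5g00660 (r = 0.9996), at 18.5 ± 0.459 FPKM in WT against 5.07 ± 0.676 FPKM in mutant fruit (SD, n = 3 each), long chain acyl-CoA synthetase 6 FvH4_4g15110 (r = 0.9991) and the blue light receptor phototropin-2 FvH4_2g17220 (r = 0.9991); 1167 genes had r above 0.95. For the ALKBH5 gene they were heterogeneous nuclear ribonucleoprotein H FvH4_3g28820, apoptosis inhibitor 5 FvH4_3g08240 and an ARP2/3 subunit gene FvH4_3g33280 (r from 0.9749 to 0.9835), with 13 genes above 0.95. Above that r stood 230 genes for FvH4_3g46100, 259 for FvH4_5g24670, 764 for FvH4_2g25440 and 92 for FvH4_5g38270.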
